A study of Mus musculus with 51 samples.

Results

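H3K4me3, trimethylation of lysine 4 of histone H3, was profiled in mouse embryos 24h old that were knocked out for LoNA (LoNA KO) and in control embryos of the same age. All 48658 peaks of the deposited H3K4me3 table were taken, of 69898 peaks in the 3 peak tables used from this series, the other tables being H3K27me3 (11638 peaks) and acetylated nucleophosmin, AcNPM1 (9602 peaks). LoNA is a long noncoding RNA of the nucleolus. The title of the series puts the question as how a failing nucleolus, through nucleophosmin (NPM1) and the Polycomb complex PRC2, bears on transcription at the two-cell stage. Both groups were C57BL/6 embryos in ordinary embryo culture, and the libraries were made in situ with a Vazyme ChIP kit and an H3K4me3 antibody from Abcam. The labels name a p300 inhibitor in the treatment field of all ChIP samples, these included, while only a separate AcNPM1 group is titled as treated, so for the H3K4me3 samples treatment with it cannot be told from the labels. They state neither how LoNA was removed nor how many embryos were pooled. The columns of the table carry initials only, and were read as LoNA KO and control from the direction of the deposited ratio and the wording of the table's name. Each condition had 1 labelled sample and 1 column, so no difference in H3K4me3 has a replicate check or a test.

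H3K4me3 marks the first nucleosomes of transcribed and poised genes. It is laid down by the SET1 and MLL family of methyltransferases and removed by KDM5 demethylases, while KDM1 enzymes act on the lower methylation states of the same lysine. CpG islands often carry the mark, as the CXXC domains of its writers bind unmethylated CpG. In mouse oocytes H3K4me3 also forms broad domains away from promoters, which are taken off in the two-cell embryo when the zygotic genome becomes active. At developmental genes the mark often lies beside H3K27me3, the product of PRC2, in the state called bivalent.

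Upstream bases of 5 genes are printed from RefSeq (GRCm38.p6, the same build as mm10), each being the 250 bases before the gene start, 5′ to 3′ on the gene's strand. The first 2 are histone genes with some of the lowest ratios, and capitals mark 3 promoter motifs on either strand. These are the TATA box, searched as TATAAA, the CCAAT box, and the octamer, searched as ATTTGCAT. Upstream of H2bc22 (chr13:21787238-21787487, plus strand) and H2bc8 (chr13:23571150-23571399, plus strand) the bases are these.
H2bc22: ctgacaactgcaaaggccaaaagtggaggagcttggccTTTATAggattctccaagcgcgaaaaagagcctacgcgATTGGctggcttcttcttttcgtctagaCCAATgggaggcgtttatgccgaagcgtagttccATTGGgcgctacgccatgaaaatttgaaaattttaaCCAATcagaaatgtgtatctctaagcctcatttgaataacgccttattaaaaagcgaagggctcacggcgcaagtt
H2bc8: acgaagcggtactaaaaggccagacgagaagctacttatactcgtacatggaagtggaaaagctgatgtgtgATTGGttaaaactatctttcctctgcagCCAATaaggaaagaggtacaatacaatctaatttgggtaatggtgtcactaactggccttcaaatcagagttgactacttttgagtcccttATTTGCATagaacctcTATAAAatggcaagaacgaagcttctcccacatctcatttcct
The next 3 are Snhg15 (chr11:6528761-6529010, minus strand), among the lowest ratios, Grsf1 (chr5:88675581-88675830, minus strand), among the highest, and the pluripotency gene Pou5f1 (chr17:35505782-35506031, plus strand). In these, capitals mark CG dinucleotides, which number 26, 46 and 8.
Snhg15: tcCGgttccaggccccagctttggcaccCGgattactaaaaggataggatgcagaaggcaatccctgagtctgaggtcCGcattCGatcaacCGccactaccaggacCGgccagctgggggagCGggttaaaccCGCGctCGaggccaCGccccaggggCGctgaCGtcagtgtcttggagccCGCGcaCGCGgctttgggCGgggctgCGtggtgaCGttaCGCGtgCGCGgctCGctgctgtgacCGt
Grsf1: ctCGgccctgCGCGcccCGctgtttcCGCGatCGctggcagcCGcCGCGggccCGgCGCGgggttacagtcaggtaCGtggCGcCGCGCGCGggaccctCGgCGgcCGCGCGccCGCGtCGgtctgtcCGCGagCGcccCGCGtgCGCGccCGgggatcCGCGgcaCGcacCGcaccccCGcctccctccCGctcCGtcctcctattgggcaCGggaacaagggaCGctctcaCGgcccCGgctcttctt
Pou5f1: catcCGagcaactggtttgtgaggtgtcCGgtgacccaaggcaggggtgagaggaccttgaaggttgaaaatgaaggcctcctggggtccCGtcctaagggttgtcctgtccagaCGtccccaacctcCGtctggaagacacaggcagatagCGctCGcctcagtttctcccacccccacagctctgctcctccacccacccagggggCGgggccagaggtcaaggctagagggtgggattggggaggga

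The LoNA KO column was scaled to 49648616 total reads and the control column to 66601350, and 39.3% and 42.2% of them lay in the listed peaks. Peaks were 220 to 7148 bases wide, with a median of 827. The median level was 5.04 RPM (the deposited scale, a peak's reads relative to all reads of its library) in LoNA KO and 5.56 RPM in control, and no peak was empty, the lowest holding 29 and 34 reads. Levels in LoNA KO and control followed each other closely across peaks (Spearman rho 0.985, a description over 48658 peaks of 1 library each). The median log2 ratio of LoNA KO over control was -0.13, a ratio of 0.917, with quartiles of -0.26 and 0.01. In all, 73.1% of peaks had a lower RPM in LoNA KO than in control. The shift was similar on all 21 chromosomes, from -0.14 on chromosome 19 to -0.11 on chromosome 15. Dividing by the reads that fell in peaks, instead of all reads, adds 0.11 to every log2 ratio and brings the median to -0.02. Single genes and groups are therefore read against the all-peak median.

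Few peaks differed strongly between the conditions, with the fold taken from equal RPM and not from the all-peak median. At a 2-fold difference 5 peaks were higher in LoNA KO (0.0103% of peaks) and 31 were lower (0.0637%), and scaling by reads in peaks turned this split to 27 higher and 7 lower. At a 1.5-fold difference 267 were higher (0.549%) and 1318 lower (2.71%), against 604 and 583 with that scaling. The 36 peaks past 2-fold were weak, with a median of 230 reads over both libraries against 620 over all peaks. Of the 5 higher ones 1 was at a promoter, and of the 31 lower ones 9 were, where 38.6% of all peaks were. Counting error alone gave a root-mean-square SD of 0.14 on the log2 scale, against an observed SD of 0.24. Over the 4866 peaks of the highest level decile the observed SD was 0.14 and the counting SD 0.055, and over the 4867 of the lowest they were 0.34 and 0.24.

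**Figure D1:**
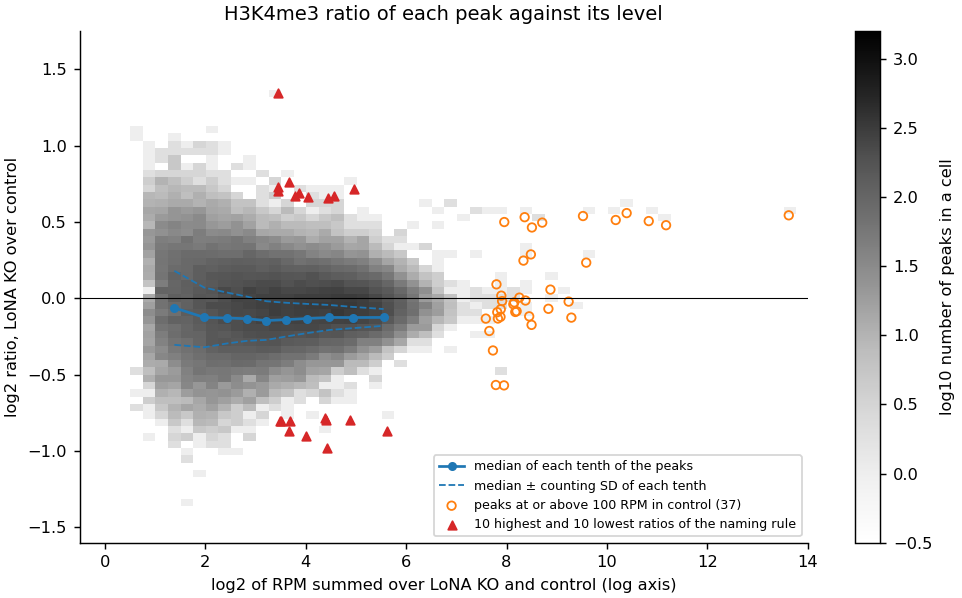
H3K4me3 log2 ratio of LoNA KO over control (vertical axis) against the log2 of RPM summed over both conditions (horizontal axis), with grey cells for the number of peaks on a log10 scale. The blue line of medians is at -0.06 in the lowest level decile and between -0.14 and -0.12 in the others, the dashed lines show the counting SD, and the 37 strongest peaks (orange circles) spread from -0.57 to 0.56.

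Among peaks with at least the median summed level of 10.6 RPM, the highest ratio was at chr12:22623122-22623634, over the start of AC166358.2. It held 387 reads in LoNA KO and 204 in control, which is 7.79 and 3.06 RPM, and a log2 ratio of 1.35 (95% counting interval 1.10 to 1.60, which like all intervals here covers counting error only). The next 9 lay between 0.66 and 0.76. Of these, 7 were at gene starts, those of Agap1 (0.76), Tapt1 with Gm42984 (0.70), Sephs1 (0.69), Grsf1 (0.67), Gm26676 (0.67), Snx9 (0.66) and D5Ertd579e (0.66), and 2 lay within the gene spans of Adgrf2 and Cldn34d. Sephs1 makes a selenophosphate synthetase homologue, Grsf1 a mitochondrial RNA-binding protein and Snx9 a sorting nexin of endocytosis. At Grsf1 the peak held 14.5 RPM in LoNA KO and 9.08 RPM in control, from 719 and 605 reads.

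The lowest of these ratios was the peak that the divergent histone genes H2bc22 and H2ac22 share at chr13:21786878-21787907. It held 360 reads in LoNA KO and 951 in control, or 7.25 and 14.3 RPM, a log2 ratio of -0.98 (-1.16 to -0.80). The start of Snhg15, a noncoding RNA gene that hosts snoRNAs in its introns, followed in the same group at 10.8 RPM in LoNA KO and 18.8 RPM in control, a log2 ratio of -0.80 (-0.95 to -0.65). A peak within 1 kb of the start of Mesd, inside Tlnrd1, was also at -0.80. The other 7 lay away from gene starts, between -0.90 and -0.78. They were nearest to the starts of Hmgn1, Gm33272 (inside Erdr1 on chromosome Y), Asb10, Smarcad1, Gm31458, Susd2 and 4930584F24Rik.

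Promoters and other sites had close medians. A promoter peak is one within 1 kb of a gene start of RefSeq or of the deposited RNA tables, and 18792 peaks (38.6%) met this, at 20560 genes. They included 15130 of 22547 protein-coding symbols (67.1%). The median log2 ratio was -0.12 at promoters and -0.13 at the 29866 other peaks. Farther from a start the median was -0.14 at 2.5 to 10 kb, -0.13 at 10 to 50 kb, -0.11 at 50 to 200 kb and -0.07 beyond 200 kb (980 peaks). Peaks of the widest decile, 1567 to 7148 bases, had a median of -0.11. The 5 widest, nearest to Gm30228, Gm4735, Gm39767, S100a7l2 and Gm28060 and each over 4 kb from a start, had ratios between -0.11 and -0.02. Peak strength is given per peak and not per base, so levels are not compared between genes.

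Sites that also held the other marks had nearly the same H3K4me3 ratio as those that did not. An H3K27me3 peak overlapped 8085 H3K4me3 peaks (16.6%), which had a median of -0.11, against -0.13 at the 40573 without one. An AcNPM1 peak overlapped 6910 (14.2%), with a median of -0.11, against -0.13 without. At the 3051 promoter peaks found in all 3 tables the median log2 ratio of LoNA KO over control was -0.11 for H3K4me3, 0.11 for H3K27me3 and 0.22 for AcNPM1. Peak by peak the ratios were hardly related (Spearman rho -0.10 with H3K27me3 and -0.02 with AcNPM1, a description over 3051 peaks, with separate libraries for each mark). The H3K27me3 table had a median of 0.06 over all its own peaks, and the AcNPM1 table had 0.14. Each table was scaled on its own, so ratios are compared within a table.

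The replication-dependent histone genes had the lowest median of the lists with more than 1 peak. They encode the canonical H1, H2A, H2B, H3 and H4 proteins, are transcribed in S phase and make messages that end in a stem-loop in place of a poly(A) tail. This list was made after its lowest members had been seen, so its direction is a description. Of 67 genes, 66 had a promoter peak, and because neighbouring genes share starts there were 54 peaks. The median log2 ratio was -0.50, range -0.98 to -0.03, and 52 of 54 lay below the all-peak median. At a 1.5-fold difference 14 of 54 were lower and 0 higher, where 1.31% of all promoter peaks were lower and 0.282% higher. Scaled by reads in peaks, the histone median was -0.40 and 5 of 54 were 1.5-fold lower, against 94 of the 18792 promoter peaks. Summed over the 54 peaks, H3K4me3 was 490.0 RPM in LoNA KO (24330 reads) and 674.0 RPM in control (44891 reads).

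The median of each core class lay below the all-peak median. The median was -0.57 for H4 genes (17 peaks), -0.53 for H2B (20 peaks), -0.51 for H2A (18 peaks) and -0.49 for H3 (19 peaks), with peaks shared between classes counted in each. For linker histone H1 it was -0.27 over 6 peaks, the highest being Hist1h1t, the testis form, at -0.08. Among single genes, Hist1h2bg and Hist1h2ae (RefSeq H2bc8 and its partner) shared a peak of 8.74 RPM in LoNA KO and 15.0 RPM in control, a log2 ratio of -0.78 (-0.94 to -0.61). Hist1h3e was at 7.15 RPM in LoNA KO and 11.9 RPM in control, and Hist1h4m at 15.3 and 24.4 RPM. These genes were named from the list after its values were seen. Hist2h3c2 was at -0.35, and Hist2h2be with Hist2h2ac at -0.28. The 8 genes of replacement histones such as H3f3a, H3f3b and H2afz, which are made through the whole cell cycle, had a median of -0.12 over 10 peaks, with H2afz at -0.35 and H1f0 at 0.23. Histone genes are near-identical copies, and how reads that match several copies were handled is not given in the sources used here.

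Most of these peaks, 43, lay on chromosome 13, where the large histone cluster has its genes, and their median was -0.52. The 11 elsewhere had a median of -0.39. In the stretch of chromosome 13 around the cluster the 74 peaks without a histone start had a median of -0.16, and the 20 of them at other gene starts also -0.16. Hfe, an iron-regulating gene inside the cluster, was the lowest of those 20 at -0.54, a peak named here after its value was seen. Away from gene starts, a weak peak inside Trim38 (105 reads in LoNA KO and 307 in control) was lower than every histone peak, at -1.12, and a peak nearest to Btn2a2 was at -0.68. Of other such peaks lying among histone starts, that nearest to Gm11274 was at -0.46 and that nearest to H2bc22 at 0.39. Many of the 74 lie in gaps between groups of histone genes, so their median is not that of the closest neighbours. The upstream bases of 58 histone promoters had a median GC of 44.8%, and 1930 other promoters with a peak and a GC of 40.5% to 49.2% (the histone quartiles) had a median ratio of -0.15, with a 5th percentile of -0.51.

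A CCAAT box, in either orientation and with no limit on overlap, stood in the 250 upstream bases of 48 of the 58 histone promoters (82.8%), against 33.8% of 32851 RefSeq promoters and 33.9% of those with a peak. The TATAAA motif was in 46.6% against 12.4% of all RefSeq promoters and 5.90% of those with a peak, and the octamer ATTTGCAT in 22.4% against 1.60% and 1.24%. All 15 H2B promoters held CCAAT, and 7 held the octamer, as H2bc8 does above. These are letter matches in a window and are properties of the genes, not of the LoNA KO. The windows of divergent histone genes can overlap, so 1 match can count for both promoters. The window of H2ac22 (chr13:21787249-21787498, minus strand) covers most of that of H2bc22. The TTTATA marked for H2bc22 above reads TATAAA on the strand of H2ac22.

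**Figure D2:**
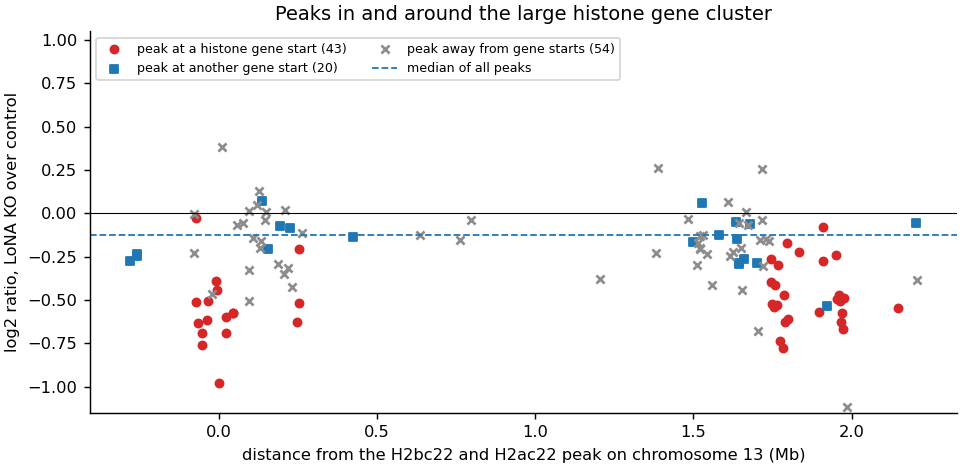
H3K4me3 log2 ratio of LoNA KO over control (vertical axis) for every peak in the chromosome 13 histone region, against the distance in Mb from the H2bc22 and H2ac22 peak (horizontal axis). Peaks at histone gene starts (red) mostly lie near -0.5, peaks at other gene starts (blue squares) and away from starts (grey crosses) mostly near the all-peak median of -0.13.

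Of 42 genes of the two-cell stage, 39 have a start in the annotation used, and 6 of these had a promoter peak. Zscan4d and the other Zscan4 genes on the list, which act in telomere upkeep, had none, and neither did Zfp352 or the 8 Obox homeobox genes, 1 of which, Obox4, has no start there. Duxf3, a copy of the transcription factor that switches on two-cell genes, had 23.3 RPM in LoNA KO and 18.4 RPM in control over 2 peaks, a log2 ratio of 0.35 (0.23 to 0.46), in a repeated array where reads cannot be placed with certainty. Sp110, a nuclear body protein, was at 0.72 from 112 reads in LoNA KO and 91 in control (0.31 to 1.14). Zfp296 was at -0.41, Eif1a at -0.13, Arg2 at 0.06 and Dppa2 at 0.09. The list's median was 0.09 over 7 peaks, and 2 of 7 peaks, 1 of Duxf3 and that of Sp110, were past 1.5-fold higher, where 0.282% of all promoter peaks were.

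Maternal oocyte genes had a promoter peak at 12 of 26 members, with a median of -0.26 over 13 peaks. None of the 13 was past 1.5-fold, where 1.31% of all promoter peaks were lower and 0.282% higher. Tle6, of the subcortical maternal complex, had 11.7 RPM in LoNA KO and 16.7 RPM in control, a log2 ratio of -0.51. Ccnb1, cyclin B1, was at -0.48, while Gdf9, an oocyte growth factor, was at -0.20 and Kit at -0.03. Genes of major genome activation (24 of 25 with a peak) had a median of -0.21 over 27 peaks. Ccnd1, cyclin D1, was lowest there at -0.50, from 7.27 RPM in LoNA KO and 10.3 RPM in control, and the heat shock genes Hspa1b and Hspa1a, early transcribed in the embryo, were at -0.29 and -0.22. Pluripotency genes (23 of 24 with a peak) had a median of -0.23 over 29 peaks. Pou5f1, the Oct4 gene printed above, had 32.6 RPM in LoNA KO and 39.6 RPM in control, a log2 ratio of -0.28 (-0.37 to -0.19). Klf4 was at -0.08 and Tet1 at -0.12. Zfp42 and Esrrb lay at -0.32.

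Targets of p53 and stress genes all had a promoter peak (16 of 16), with a median of -0.30 over 21 peaks. For 11 of the 21 the counting interval lay wholly below the all-peak median and for 2 wholly above it, where 15.5% and 17.3% of all promoter peaks did so. None of the 21 was past 1.5-fold, where 1.31% of all promoter peaks were lower and 0.282% higher. Cdkn1a, the p21 cell cycle inhibitor, had 38.3 RPM in LoNA KO and 50.3 RPM in control, a log2 ratio of -0.39 (-0.47 to -0.31). Trp53inp1 was at -0.38, Bax and Gadd45a at -0.34, and Bbc3, the Puma gene, at -0.07. Cell cycle genes (20 of 20) had a median of -0.17 over 21 peaks, with Ccnb1 at -0.48, Ccnb2 at -0.47 and the replication helicase gene Mcm5 at -0.23. Their largest value above 0 was Cdk1 at 0.19, named after its value was seen.

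**Figure D3:**
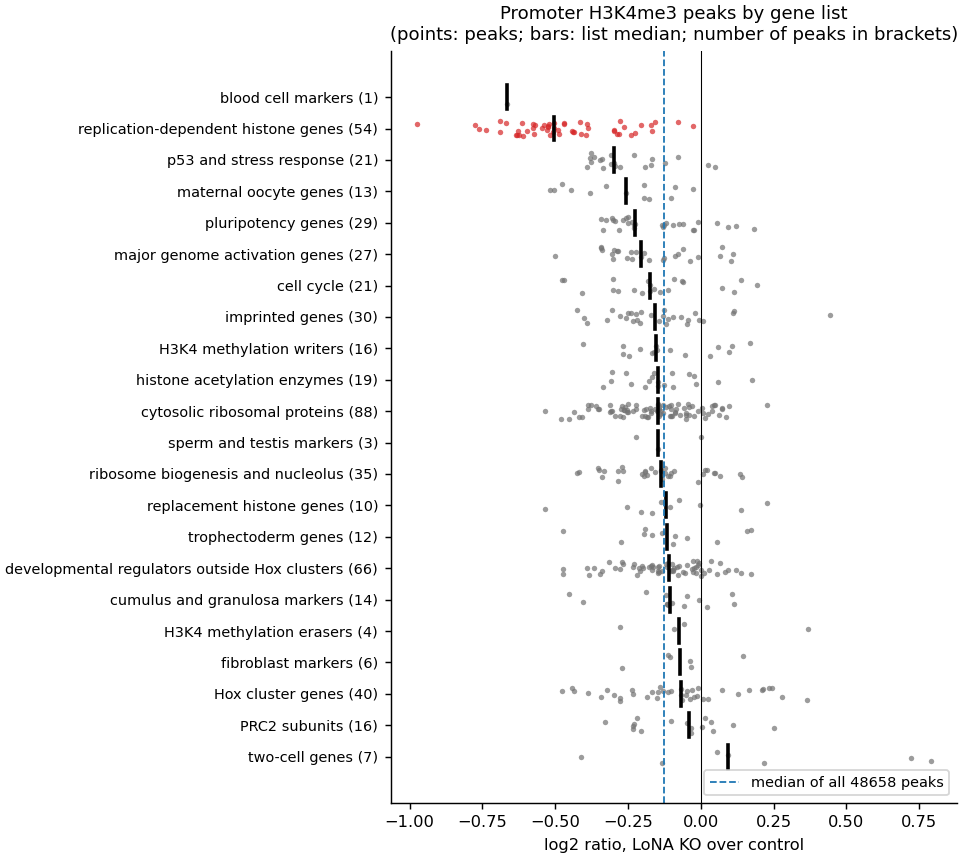
H3K4me3 log2 ratio of LoNA KO over control (horizontal axis) of promoter peaks, with a row for each gene list, points for peaks and bars for list medians. The replication-dependent histone peaks (red) have a median of -0.50, most other lists lie around the all-peak median of -0.13 (dashed line), and the two-cell genes are highest at 0.09.

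Nucleolar and ribosomal genes had medians near the all-peak median. All 30 genes of ribosome biogenesis had a promoter peak, with a median of -0.14 over 35 peaks. Npm1, which encodes nucleophosmin (peak at chr11:33161819-33163581), had 18.1 RPM in LoNA KO and 23.0 RPM in control, a log2 ratio of -0.35 (-0.47 to -0.23). Ncl, which encodes nucleolin, had 34.2 and 43.7 RPM, also -0.35 (-0.44 to -0.27). Polr1a, the largest RNA polymerase I subunit, was at -0.37, Nop2 at -0.28 and Bop1 at -0.01. The 76 cytosolic ribosomal protein genes had a median of -0.15 over 88 peaks. The promoters of Actb and Gapdh, often used as reference genes, were at -0.18 and -0.17.

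Genes of the enzymes that act on lysine 4 of H3 varied around the same level. H3K4 methyltransferase complexes had a median of -0.15 over 16 peaks, with Kmt2b at -0.10, Kmt2a at -0.12, Cxxc1, the CpG-binding subunit of SET1, at -0.34, and Ash2l at -0.27. Among the demethylases of this lysine Kdm5c was at -0.28. Kdm1a, which acts on its lower methylation states, was at 0.37, from 7.37 RPM in LoNA KO and 5.71 RPM in control (0.16 to 0.58), and its relative Kdm1b at -0.09. PRC2 subunits had a median of -0.04 over 16 peaks. Ezh2, the catalytic subunit, was at -0.03, Rbbp4 at -0.23 and the accessory subunit Aebp2 at 0.25. Histone acetylation enzymes had a median of -0.15, and Ep300, the p300 gene, was at 0.06.

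Developmental genes are where H3K27me3 is known to lie beside H3K4me3. Hox genes (33 of 39 with a peak) had a median of -0.07 over 40 peaks, of which 15 also had an H3K27me3 peak, with Hoxb1 at -0.48. Of the 50 other developmental regulators 47 had a peak, with a median of -0.11 and Pax9 at -0.31. Trophectoderm genes had a median of -0.11, with Eomes at 0.17 and Gata3 at -0.19. Imprinted genes (21 of 28) had a median of -0.16, with Gnas and Gab1 at -0.13 and Nespas, antisense to Gnas, at -0.39. None of these lists had a peak past 1.5-fold, where 1.31% of all promoter peaks were lower and 0.282% higher. At those shares lists this short would hold few such peaks, so this says little about them.

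Markers of other cells that an embryo sample could hold were checked in the same way. Of the cumulus and granulosa markers 10 of 14 had a promoter peak, among them Inha, Inhbb, Amh and Foxl2, with a median ratio of -0.11. That is near the share over all protein-coding symbols, of which 67.1% had a promoter peak. Of the fibroblast markers 5 of 10 had one, of sperm and testis markers 3 of 14, and of blood cell markers 1 of 12. That gene was Cd3e, at 1.99 RPM in LoNA KO and 3.17 RPM in control. A promoter peak is no measure of transcription, since CpG-rich promoters of silent genes hold the mark too, and cell makeup was not tested.

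Some of the strongest peaks had more signal in LoNA KO. In control 37 peaks held at least 100 RPM, and 33 of them overlapped peaks of both other tables. They took 1.69% of reads in LoNA KO and 1.32% in control. A set of 10, described after their values were seen, had log2 ratios of 0.46 to 0.56. They included Gm10800 and Gm10801 on chromosome 2, Gm21738 on chromosome 14 and Gm10718, Gm10722 and Gm11168 near the start of chromosome 9. At Gm10800 (chr2:98666253-98667321) the level was 7471 RPM in LoNA KO and 5123 RPM in control, and at Gm21738 (chr14:19416891-19419352) 1348 RPM in LoNA KO and 967 RPM in control. At these 10 the H3K27me3 ratio was -1.06 to -0.005 and the AcNPM1 ratio -0.91 to -0.33. The other 27 had H3K4me3 ratios of -0.57 to 0.29. Of these, 23 had an H3K27me3 peak, with ratios of -1.24 to 0.24, 14 of them below 0, so the H3K27me3 ranges overlapped. An AcNPM1 peak was at 26 of the 27, with ratios of -0.24 to 1.56, 4 of them below 0. Of the 26 peaks in the first 3500000 bases of chromosome 9, 20 lay above the all-peak median, and the median of the 26 was 0.46. This stretch holds the chromosome 9 peaks named above, which were picked for high ratios, so its values are no separate support. The strongest coding promoters without either other mark, chosen after values were seen, were those of Tmem38a (70.5 RPM in LoNA KO and 79.7 RPM in control, log2 ratio -0.18), Ell (-0.26), Slc12a4 (-0.09), Lsm4 (-0.18) and Slc27a1 (-0.06). How reads that match many places in the genome were handled is not given in the sources used here, and its part in these values was not tested.

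**Figure D4:**
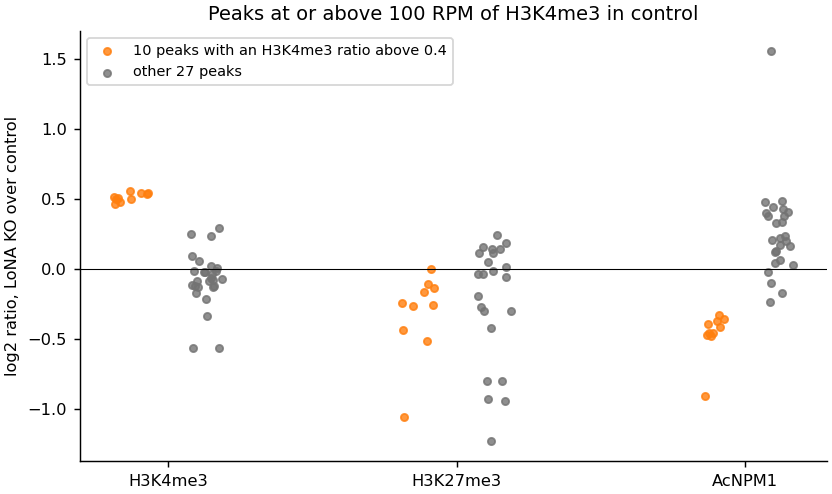
Log2 ratio of LoNA KO over control (vertical axis) in the H3K4me3, H3K27me3 and AcNPM1 tables (horizontal axis) at the 37 peaks with 100 RPM or more of H3K4me3 in control. The 10 peaks picked for an H3K4me3 ratio above 0.4 (orange) lie between -1.06 and -0.005 for H3K27me3 and between -0.91 and -0.33 for AcNPM1.

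Base content went with the presence of the mark and, weakly, with its ratio. A peak was found at 6.82% of RefSeq promoters with under 40% GC in the upstream bases, 57.8% of those with 50% to 60%, and 98.6% of those with 65% to 70%. Among promoters with a peak the median ratio was -0.16 under 40% GC, -0.14 at 60% to 65% and -0.01 at 75% or more over 1268 promoters. The relation across 17146 marked promoters was weak (Spearman rho 0.18 with GC and 0.13 with the observed-over-expected CpG ratio). The median of the histone promoters, a list made after its low members were seen, was below that of all marked promoters in the 6 GC classes that held any, 3 of which held only 2, 1 and 2. Grsf1, with 78% GC in the bases printed above, had a high ratio, but Snhg15, with 65.6%, had a low one. Library GC content was not tested.

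**Figure D5:**
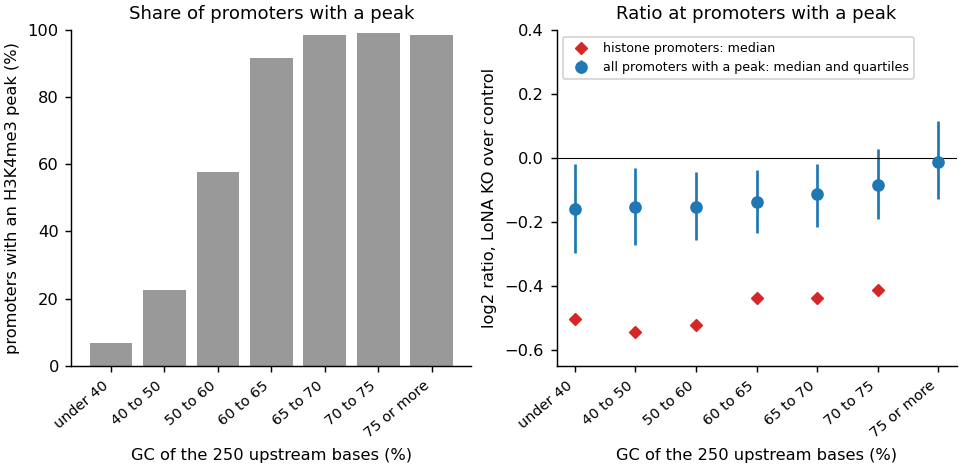
Share of RefSeq promoters with an H3K4me3 peak (left, percent) and log2 ratio of LoNA KO over control at those with a peak (right, median and quartiles in blue, histone promoters in red), by GC of the 250 upstream bases. The share climbs to over 98% and the ratio goes from -0.16 to -0.01, while histone medians lie between -0.54 and -0.41.

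RNA of 24h embryos was set beside the mark. Of 4412 tested genes of any type with at least 1 CPM in both control RNA libraries, 78.4% had a promoter peak. CPM is RNA counts scaled by the library total, for this cut with that total adjusted by edgeR's normalization factors. The share was 55.6% among 13592 protein-coding symbols that had no control count or were not listed in the 24h RNA data. A symbol not listed was not measured as 0, and the sets differ in gene type, so the shares are not of like sets. With 2 libraries per group, edgeR's quasi-likelihood test called 0 of 7425 genes higher and 0 lower in LoNA KO at an adjusted p under 0.05 (0% each), with 383 at an unadjusted p under 0.05, while DESeq2 called 554 higher and 851 lower. Over 5737 genes with both values the promoter H3K4me3 ratio and the RNA ratio had almost no rank correlation (Spearman rho 0.01, a description across genes). Different RNA libraries, also those of the same group, correlated at only 0.572 to 0.632 (Pearson, log2 CPM). The RNA ratio thus holds much spread between libraries, and this rho says little about a link of mark and RNA. The 190 tested genes with the lowest 5% of promoter ratios had a median RNA log2 ratio of -0.16, the 303 with the highest 5% had 0.22 and the 5244 between had 0.07, and the quartiles of each group lay on both sides of 0. The histone genes listed in the 24h table, 18 of them, summed to 39.5 and 52.2 CPM in LoNA KO and 51.6 and 32.7 CPM in control. These 24h groups overlapped. At 18h the sums over 56 histone genes were 102.8 to 332.0 CPM in LoNA KO and 79.5 to 102.5 CPM in control, so those groups only just separated. At 20h, over 55 genes, LoNA KO had 173.2 to 326.5 CPM and control 111.7 to 291.7 CPM. At 22h, over 50 genes, they had 82.0 to 98.0 and 77.4 to 112.6 CPM, so both later times overlapped. The sums were not tested. Selection of RNA with poly(A) tails, which the labels do not state, would leave most histone messages out.

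The RNA of Snhg15 is described after its values were seen. At 24h it had 0 and 0 counts in the LoNA KO libraries, against 16 and 287 in the control libraries. For this difference edgeR's quasi-likelihood test gave an adjusted p of 0.835. At 18h, 20h and 22h the groups overlapped, with 17 to 342 counts in LoNA KO and 42 to 317 in control. Gm17382, whose RNA was nearly absent in LoNA KO embryos, had 0 to 3 counts in the 9 LoNA KO libraries of 18h to 22h and 507 to 12333 in the 9 control libraries, and it is not listed at 24h. Its start (chr17:26886037-26886682 is the stronger of its peaks) still held H3K4me3 in LoNA KO, with 282 reads in LoNA KO and 434 in control over 2 peaks, or 5.68 and 6.52 RPM, a log2 ratio of -0.20 (-0.42 to 0.02). How Gm17382 relates to LoNA is not given here, and these values are no check of the KO label of the H3K4me3 column.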

How the data were processed

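H3K4me3 ChIP was measured in 1 LoNA KO and 1 control sample of 24h embryos, and RNA at 18h to 24h. Per the submitters' processing notes, bcl2fastq 2.2, Bowtie2 2.1.0 and 2.2.3, MACS2 2.1.1, HISAT2 2.1.0 and HTSeq 0.6.0 were used with mm10, with no roles given. The authors deposited, for each peak, the read count of each condition, the total read count of each library, and RPM, the count scaled by that total, which recomputing matched. The authors' deposited table also holds a log2 ratio of the conditions, which was recomputed. Whether peaks were called per sample or on pooled samples is not given in the sources used here.

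The log2 ratio was recomputed with a pseudocount of 0.5 reads, with 95% exact Clopper-Pearson intervals. These, like all intervals here, cover counting error only, since reads without molecular identifiers are not independent molecules. Promoter peaks lay within 1 kb of a start, and overlap between tables needed 1 base. Coordinates are those of the authors' files, and exons were not annotated here. The RNA files hold deposited read counts per gene. The 8 columns of the 24h RNA table fell into 4 pairs of near-identical columns (Pearson correlation of log2 CPM of 0.995 to 0.998 within pairs and 0.572 to 0.632 between them). Each pair was summed and counted as 1 sample, 2 per group. Nothing says that these came from separate litters, so p-values measure only the spread between these samples. They were tested with edgeR 4.0.16 (quasi-likelihood, Benjamini-Hochberg) and, as an alternative, DESeq2 1.42.0, in R 4.3.3. Other steps used Python 3.11.15, numpy 2.4.6, pandas 2.3.3 and scipy 1.17.1, and were tested on simulated data.

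The naming rule took the 10 highest and 10 lowest ratios among peaks of at least the median level, the 5 strongest and 5 widest peaks, and for each list up to 4 members with the highest control RPM and 2 with the largest ratio, beside 11 set genes. Members and lists were chosen with earlier results of these data known, and both histone lists were made after these values were seen. Some genes that the rule names are not reported here.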

Additional observations from a re-analysis of the deposited data

How the results depend on the processing

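With 1 library per condition the H3K4me3 ratios have no test, and their direction over all peaks depends on scaling. Scaling by reads in all peaks gave medians of -0.0202 over all peaks, -0.0177 at promoters and -0.0227 elsewhere, with 27 peaks 2-fold higher and 7 lower. Scaling by reads in peaks under 100 RPM in control, chosen after seeing the data, gave -0.00236, 0.000158 and -0.00486, with 31 higher and 5 lower. A pseudocount of 5 reads gave -0.12, -0.12 and -0.12, with 2 higher and 12 lower. With at least 100 reads over both conditions 3 peaks were 2-fold higher, and a 1.5-fold threshold gave 267 higher and 1318 lower. Scaling by reads in peaks adds the same shift to every ratio, so values just below 0, among them the Hox median (-0.07, and 0.04 when so scaled) and the PRC2 median (-0.04 and 0.07), change sign with it. For RNA at 24h, DESeq2 gave 554 genes higher and 851 lower, and no filter gave 0 higher and 3 lower. Leaving out a library gave 0 to 23 genes higher and 0 to 16 lower, the most without control library 2, and 8 higher and 6 lower without control library 1; a lone library left in a group is assumed to vary like the others. No paired analysis was possible because H3K4me3 has 1 column per condition and the summed RNA columns carry no single replicate number. The cause of these changes was not tested beyond the construction of each setting.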
